A study of Mus musculus with 2 samples.

Results

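Nonclassical monocytes, also called patrolling monocytes, made up 384 of the 25603 cells that passed the cell filter in 2 single-cell RNA libraries from the central nervous system (CNS) of mice with experimental autoimmune encephalomyelitis (EAE), an autoimmune model of multiple sclerosis. To pass, a barcode needed at least 500 genes, at least 1000 UMIs (counted RNA molecules) of genes and under 10% of UMIs from mitochondrial genes. A cell was a member if it held a UMI of 3 or more of 6 genes (Cd300e, Ace, Ear2, Adgre4, Treml4 and Nxpe4) and none of Cd3e, a T cell gene, or P2ry12, a microglia gene. The WT library gave 158 members of 13298 cells and the Stat4fl/flCD11cCre library 226 of 12305. Because these 8 genes chose the cells, their values below are a description and support nothing.

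Both groups were C57BL/6 mice immunized with MOG peptide in CFA and given PTX, and their CNS cells were taken on day 15. The study's title names an IL-23-STAT4 axis in dendritic cells. In the Stat4fl/flCD11cCre mice a Cre recombinase under the CD11c promoter is meant to delete floxed Stat4 in cells that use that promoter. Mononuclear cells of several mice were pooled within each genotype and sorted as positive for MHC class II and CD11c before loading on a 10x Genomics 3' kit. The labels give no age or sex, and they do not say whether the WT mice carried Cre or a floxed allele. Each genotype is 1 library, so differences between genotypes could not be set against a spread between samples. No p-values were computed, and the 95% intervals hold counting error alone.

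Nonclassical monocytes mature from classical monocytes in blood and bone marrow, a step that depends on the nuclear receptor NR4A1. They crawl along the inner wall of blood vessels with the integrin LFA-1, clear debris there, and live longer than classical monocytes. In EAE, classical monocytes enter the CNS and turn into inflammatory macrophages and antigen-presenting cells. STAT4 is a transcription factor activated by IL-12 and IL-23, best known for driving interferon-gamma production in T cells and NK cells, and interferon-gamma in turn raises MHC class II and guanylate-binding protein genes in myeloid cells.

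The libraries held 13820 (WT) and 12534 (Stat4fl/flCD11cCre) barcodes, with medians of 6228 and 6767 UMIs. Members were about as deep as the libraries, with medians of 6731.5 (range 1578 to 42890) and 6895 (range 1106 to 45847) UMIs and 2282 and 2340.5 genes, and 1299567 and 1934518 UMIs in sum. Of the barcode sequences, 43 occurred in both libraries, and no barcode was a member in both. Stat4 gave 39 UMIs in members, at 6.93 CPM (UMIs scaled to the same total in each population) in WT and 15.5 in Stat4fl/flCD11cCre, and 5.06% and 7.52% of members had a UMI. The kit reads the 3' ends of transcripts and the sources used here do not name the deleted exons, so these values do not check the deletion.

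The 6 chosen genes were low in the other populations compared. This was partly set in advance, because cells that met the members' rule were left out of those populations. CPM below are the UMIs of a gene over all UMIs of a population, with exact Poisson intervals. Adgre4, an adhesion receptor of the EGF-TM7 family, was at 491 (454 to 531) in WT members and at 530 (498 to 563) in those of Stat4fl/flCD11cCre, against 19.99 and 20.7 in classical monocytes. Ace, the angiotensin-converting enzyme, was at 274 (246 to 304) and 308 (284 to 334), and Treml4, a TREM-like receptor that binds dying cells, at 249 (223 to 278) and 240 (219 to 263). Ear2, an eosinophil-associated ribonuclease, was at 230 (205 to 258) and 344 (318 to 371), and Cd300e, an activating receptor of monocytes, at 162 (141 to 186) and 215 (195 to 237). Nxpe4 was at 82.3 (67.5 to 99.5) and 93.6 (80.4 to 108). None of the 6 differed by 1.5-fold between the genotypes.

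Because deeper cells show more genes, each cell was also thinned to 2500 UMIs, which left out 11 WT and 2 Stat4fl/flCD11cCre members. Adgre4 was then found in 70.7% and 74.6% of members, and in 94.3% and 96.5% without thinning. Ace was found in 56.5% and 53.1% of thinned members, and Nxpe4 in 22.4% and 20.1%. The highest share of any of the 6 in thinned classical monocytes was 5.57% (Adgre4, Stat4fl/flCD11cCre), and the highest in T cells, which should lack these genes, was 0.107%.

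A promoter of Ace, the gate gene with the most matches, is shown for a motif of the ETS family, to which the monocyte factor PU.1 belongs. The motif searched was GAGGAAG on either strand, in 300-base windows from 250 bases before to 50 after the start in the RefSeq annotation of GRCm38.p6. It occurred in 2 of the 6 gate genes (Ace and Adgre4), against 13.6% of 32851 promoters. The 6 genes have 7 promoters and a gene counts if any of them matched, while the 13.6% is per promoter. Another Ace promoter (chr11:105974939-105975238) held 0 matches. The 250 bases before the Ace start (chr11:105967698-105967947, plus strand) hold 2 matches, in capitals. A match is a description of letters, not a site.
Ace: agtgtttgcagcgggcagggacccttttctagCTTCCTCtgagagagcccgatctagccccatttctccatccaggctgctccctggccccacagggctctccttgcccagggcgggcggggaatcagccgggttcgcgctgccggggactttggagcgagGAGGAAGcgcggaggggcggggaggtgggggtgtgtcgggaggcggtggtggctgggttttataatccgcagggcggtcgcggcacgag

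**Figure D1:**
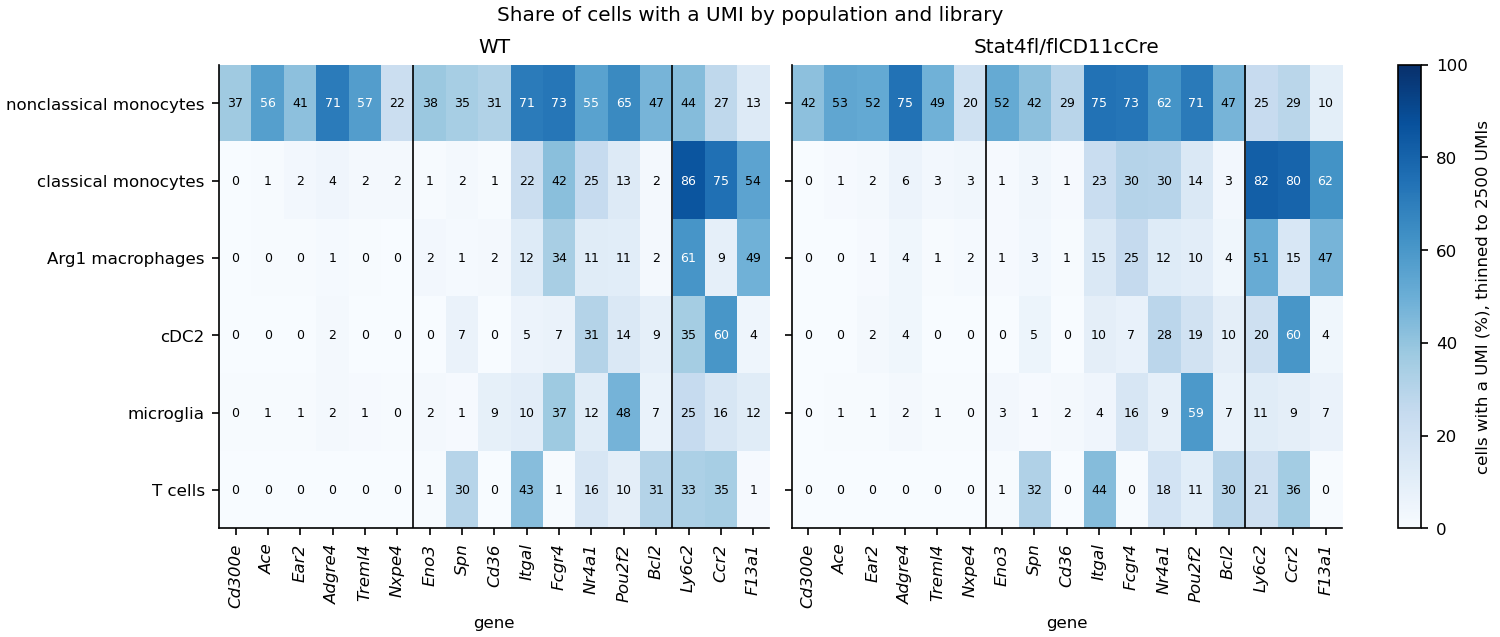
Share of cells with a UMI (%, colour and printed number) after thinning each cell to 2500 UMIs, for 17 genes (columns) in 6 populations (rows) of the WT and Stat4fl/flCD11cCre libraries. The first 6 genes chose the members; Eno3, Spn, Cd36 and other patrolling monocyte genes that did not choose them are also found in more members than classical monocytes, while Ly6c2, Ccr2 and F13a1, genes of classical monocytes that helped to choose that population, show the reverse.

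Of the cells with 3 or more gate genes, 318 in WT and 375 in Stat4fl/flCD11cCre, the rule left out 160 (50.3%) and 149 (39.7%), nearly all because of P2ry12 (148 and 145). These were deep barcodes, with medians of 20863.5 and 17458 UMIs, and 80.4% and 73.8% also held Tmem119, a second microglia gene. Scrublet, which scores barcodes for resemblance to simulated doublets, put 41.9% and 60.7% of them in the top 10% of its library, against 5.70% and 5.31% of members. No doublets were removed from the members. Of members, 31 and 39 also met the rule used here for classical monocytes, 5 and 4 that for macrophages with Arg1, 2 and 1 that for type 2 conventional dendritic cells (cDC2), 8 and 1 that for microglia, and none that for T cells.

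Neutrophil RNA was present in part of the members. In 18 WT (11.4%) and 18 Stat4fl/flCD11cCre members (7.96%), 1% or more of the UMIs came from 10 neutrophil genes, and these cells had medians of 14649.5 and 12744.5 UMIs. They raised the list to 4.38% and 2.80% of all member UMIs, while the median member was at 0.0187% and 0.0207%. S100a8, a calcium-binding protein of neutrophils, fell from 16492 to 126 CPM in WT and from 9529 to 160 in Stat4fl/flCD11cCre when these 36 cells were left out. Together with the members that met the rule of a second population they are called the doubtful members below. Main results are given also for the remaining 109 WT and 171 Stat4fl/flCD11cCre cells, a setting chosen after the data were seen.

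Other cell types left little RNA in members. T cell genes were 0.00200% and 0.000724% of UMIs (2 and 3 of 8 genes at 0), NK cell genes 0.00139% and 0.00331% (1 and 1 of 7 at 0), and platelet genes 0% and 0.000414% (6 and 3 of 6 at 0). B cell genes were at 0.00585% and 0.0152% (4 and 0 of 6 at 0), and conventional dendritic cell genes at 0.0290% and 0.0239% (1 and 1 of 14 at 0). Plasmacytoid dendritic cell genes were at 0.0362% and 0.0339% (1 and 0 of 8 at 0), endothelial genes at 0.0205% and 0.0162% (3 and 3 of 6 at 0), and choroid plexus genes at 0.00300% and 0.000879% (4 and 3 of 5 at 0). Microglia genes were at 0.0471% in WT and 0.0243% in Stat4fl/flCD11cCre members (1 and 2 of 12 at 0), above the 0.0160% and 0.0153% of T cells.

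Most patrolling monocyte genes outside the rule were also higher in members than in classical monocytes. Their list was chosen with earlier results of these data known, so it describes the members and does not establish what they are. The classical monocytes were 985 WT and 830 Stat4fl/flCD11cCre cells. These held a UMI of 4 or more of 6 genes, among them Ly6c2, Ccr2, F13a1, Vcan and Chil3. They held none of Cd3e, P2ry12, Siglech, Elane and Mpo. Cells that also met the rule of another population were left out of the classical monocytes, while members that did so were kept. Of 22 patrolling monocyte genes, 14 were 2-fold or more higher in members in both libraries and 0 were lower, with median log2 ratios of 1.61 (WT) and 1.99 (Stat4fl/flCD11cCre). Of all 8602 genes compared, 3.62% were higher and 2.38% lower by that rule.

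Surface and adhesion molecules of patrolling cells were among them. Spn, which encodes CD43, the protein used to stain these cells, was at 189 CPM in WT and 207 in Stat4fl/flCD11cCre members against 10.3 and 17.2 in classical monocytes, log2 ratios of 4.19 and 3.59. T cells also express Spn, at 152 and 160 CPM. Itgal, the alpha chain of LFA-1, was at 562 and 621 against 120 and 106 (log2 2.23 and 2.55). Fcgr4, the Fc receptor that binds IgG2, was at 708 and 642 against 268 and 186 (log2 1.40 and 1.79), and Ceacam1, an adhesion molecule, at 139 and 173 against 18.5 and 27.0 (log2 2.91 and 2.68). Pecam1, which encodes the endothelial and platelet adhesion molecule CD31, was at 129 and 103 against 14.0 and 11.4. Of 15 adhesion and vessel-patrolling genes measured, 5 were higher and 1 was lower.

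S1pr5, the sphingosine-1-phosphate receptor that lets patrolling monocytes leave bone marrow, was at 50.8 CPM in WT and 64.1 in Stat4fl/flCD11cCre members, and at 0.382 and 0 in classical monocytes. Cx3cr1, the fractalkine receptor gene, was at 270 and 361 against 163 and 109 (log2 0.73 and 1.73), which passed the 2-fold rule in Stat4fl/flCD11cCre only. The difference between the libraries was not tested.

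Regulators and survival genes gave a mixed picture. Nr4a1, the factor these cells need, was at 349 CPM in WT and 515 in Stat4fl/flCD11cCre members against 208 and 222 in classical monocytes, log2 ratios of 0.75 and 1.21, so it missed the 2-fold rule in WT. Pou2f2, a POU-domain factor, was at 491 and 525 against 61.6 and 72.3 (log2 2.99 and 2.86), and Klf2, a factor linked to vessel flow and quiescence, was higher by 1.36 and 1.25. Cebpb, a factor known to be needed for nonclassical monocytes, had log2 ratios of -0.03 and -0.05. Of 12 survival genes only Bcl2, which blocks cell death, passed, at 259 and 289 CPM against 12.7 and 11.6. Of 16 proliferation genes 0 passed in either direction.

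Of the 12 genes ranked highest over classical monocytes, each with 100 or more UMIs in the members of each library, Slc12a2 stood first. Slc12a2, a sodium, potassium and chloride transporter, was at 132 CPM in WT and 185 in Stat4fl/flCD11cCre members against 2.29 and 1.14 (log2 5.84 and 7.34). Eno3, the muscle form of enolase, followed with 189 and 260 against 3.69 and 3.18 (log2 5.67 and 6.35). Pparg, the lipid-sensing nuclear receptor, was at 144 and 155 against 3.82 and 2.96 (log2 5.24 and 5.71), and Cd36, the scavenger receptor for oxidized lipids, at 152 and 164 against 4.20 and 4.44 (log2 5.17 and 5.21). Bcl2, Spn, Heg1, Hes1, Pecam1, Cyfip2, Grk3 and Cyth3 were the other 8. Of 15 lipid genes 4 were higher (Cd36, Fabp4, Pparg and Nr1h3) and 3 lower (Msr1, Abca1 and Npc2). Fabp4, a fatty acid carrier with too few UMIs to be ranked, was higher by 4.93 and 5.51.

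Part of the genes of classical monocytes and inflammatory macrophages were lower. Of 13 classical monocyte genes measured, 7 were 2-fold or more lower in both libraries, 0 were higher and 6 passed neither way. Of 13 inflammatory macrophage genes 6 were lower, 0 higher and 7 neither. F13a1, coagulation factor XIII, was at 78.5 CPM in WT and 146 in Stat4fl/flCD11cCre members against 509 and 690 in classical monocytes (log2 -2.70 and -2.24), Ccr2, the receptor for entry into tissue, at 234 and 355 against 728 and 858 (log2 -1.64 and -1.28), and Ly6c2 at 613 and 538 against 1710 and 1764 (log2 -1.48 and -1.71). These 3 helped to choose the classical monocytes. Fn1 and Thbs1, matrix proteins that chose neither population, were lower by the same rule, Fn1 at 275 and 191 against 950 and 1029 and Thbs1 at 70.0 and 134 against 369 and 567. Arg1, arginase 1 of inflammatory macrophages, was at 85.4 and 45.0 against 485 and 432.

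Of 16 type I interferon response genes measured, 9 were lower than in classical monocytes and 0 higher, with medians of -1.12 and -1.29, and Isg15 was at 187 and 99.2 CPM against 480 and 365. Of 15 chemokine genes 7 were lower and 1, Ccl17, was higher. Cxcl10, which draws activated T cells, was at 369 and 89.4 CPM against 1136 and 606, and Cxcl2, which draws neutrophils, at 609 and 431 against 1439 and 918. MHC class II genes did not separate the populations by that rule, with 0 of 10 higher or lower. Without the doubtful members the counts over all genes were 471 higher and 522 lower, against 311 and 205 of 8602 with them. The number of genes that reached the UMI minimum without them was not recorded. Members that met the classical monocyte rule were among those left out.

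**Figure D2:**
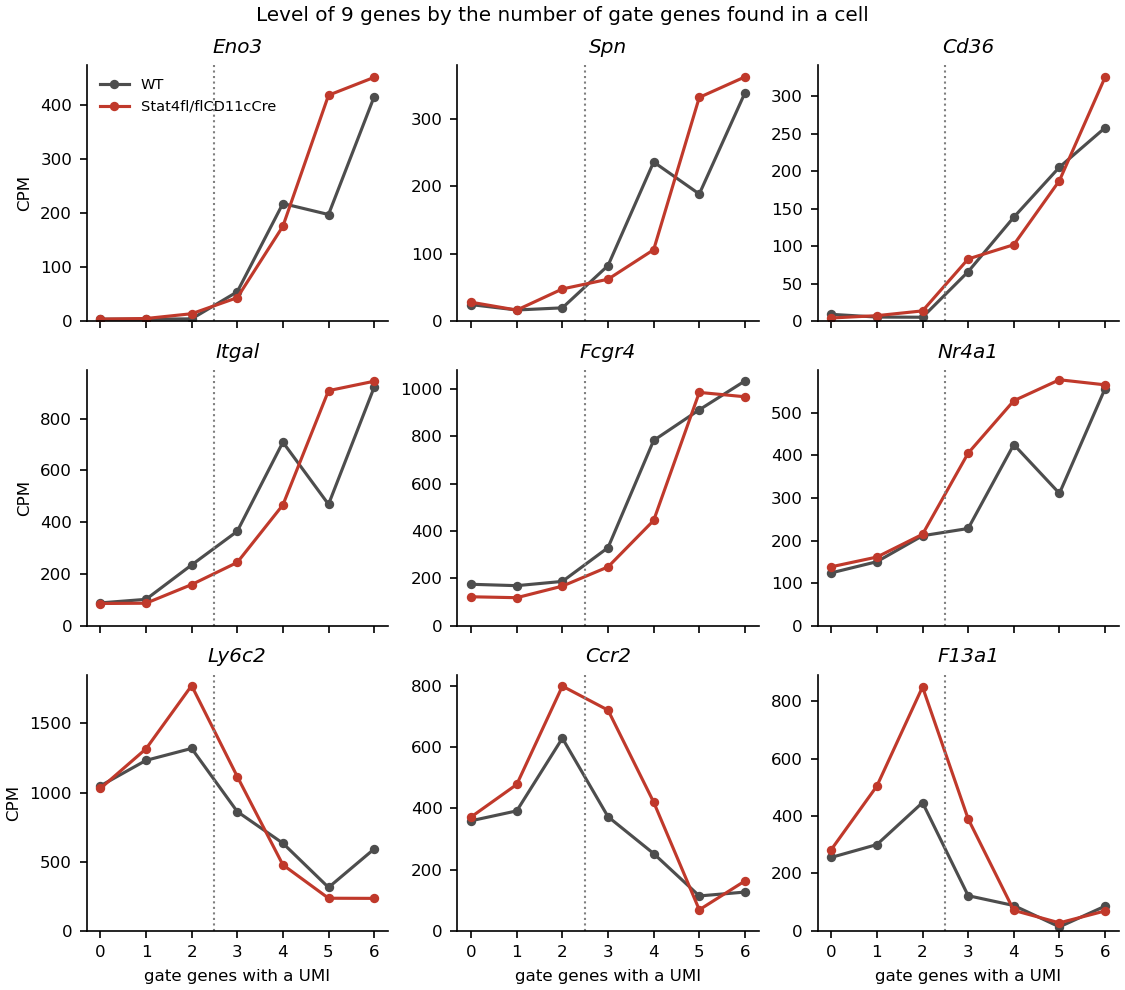
CPM (y axis, from 0) of 9 genes in cells without Cd3e and P2ry12 grouped by how many of the 6 gate genes they held (x axis), for WT (grey) and Stat4fl/flCD11cCre (red); the dotted line marks the rule, members lying to its right. Eno3, Spn, Cd36, Itgal and Fcgr4 were higher at 6 gate genes than at 3 in both libraries, and Ly6c2, Ccr2 and F13a1 were lower.

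The rule's threshold cut through a gradient. Cells with 2 gate genes, just outside (103 WT and 122 Stat4fl/flCD11cCre cells), had Eno3 at 4.15 and 13.6 CPM, those with 3, just inside (50 and 52 cells), at 54.2 and 43.4, and those with all 6 (23 and 45 cells) at 415 and 451. Spn went from 19.7 and 47.8 CPM at 2 genes to 82.5 and 62.2 at 3 and 339 and 363 at 6. Ly6c2 went the other way, from 1319 and 1773 at 2 genes to 862 and 1116 at 3 and 592 and 235 at 6, and Ccr2 from 628 and 798 to 372 and 720 and then 126 and 163. The members with 3 gate genes thus held more RNA of classical monocytes than those with 6. Members with 4, 5 and 6 gate genes numbered 43, 42 and 23 in WT and 55, 74 and 45 in Stat4fl/flCD11cCre.

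Against macrophages with Arg1 (202 WT and 197 Stat4fl/flCD11cCre cells), 9.91% of 6287 genes were 2-fold or more higher in members in both libraries and 5.3% lower, and 18 of 22 patrolling monocyte genes were higher. Cd244a, the receptor 2B4, was at 130 and 135 CPM in members against 2.03 and 2.68, and Ceacam1 at 139 and 173 against 4.07 and 4.22. Among the 12 ranked highest were also the neutrophil granule genes Camp, Ltf, Ngp, Lcn2, S100a9 and Serpinb1a. Camp, at log2 ratios of 10.06 and 8.53, was at 0.41 and -0.53 without the doubtful members. Inflammatory macrophage genes were lower in 12 of 13, a count that includes Arg1, Gpnmb, Ms4a7 and Slc7a2, which chose the macrophages. Spp1, osteopontin, which did not, was at 75.4 and 20.7 CPM against 641 and 767. Apoe, the lipid carrier, was at 2782 and 3293 CPM in members against 32450 and 30607. F7, coagulation factor VII, was at 4.62 and 6.20 against 119 and 146.

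Against cDC2 (91 WT and 113 Stat4fl/flCD11cCre cells), 10.7% of 4982 genes were higher and 3.41% lower. Some of the genes ranked lowest against cDC2 had not chosen that population. Among them, Klrd1 was at 5.39 and 6.72 CPM in members against 414 and 434, and Cd7 at 20.8 and 10.3 against 297 and 199. Neither is on the list of conventional dendritic cell genes used here. Mgl2, a lectin that helped to choose cDC2, had 0 UMIs in members of both libraries, a limit of 2.31 and 1.55 CPM at 3 counts. Of 10 MHC class II presentation genes 9 were lower than in cDC2, with medians of -1.65 and -2.41. Hes1, a Notch target, was at 130 and 117 CPM in members with 0 UMIs in cDC2, and Apoc2 at 323 and 627 against 4.20 and 10.9.

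Antibody tags gave the surface protein of the same cells, which the rule did not use. Members carried CD11b, the integrin chain of myeloid cells, with medians of 414 (WT) and 400.5 (Stat4fl/flCD11cCre) tag UMIs per cell, below the 785 and 713.5 of classical monocytes and above the 30 and 22 of T cells. CD172a, the receptor SIRP-alpha, had medians of 289.5 and 382, against 301 and 382.5 in classical monocytes and 39 and 93 in T cells. As a share of a cell's tags, CD172a took 37.6% and 41.4% in members and 25.5% and 30.3% in classical monocytes, and CD11b 52.9% and 44.1% against 64.0% and 56.0%. The RNA of CD11b, Itgam, was at 268 and 277 CPM in members against 326 and 312.

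Tags of other cell types stayed low. MERTK had medians of 20 and 41.5 in members and 12 and 32 in T cells, XCR1, a marker of type 1 dendritic cells, 23 and 33 against 11 and 25, and CD317, a marker of plasmacytoid dendritic cells and of interferon exposure, 28.5 and 31 against 12 and 21. For MERTK and XCR1 the library with higher medians in members was also the one with higher medians in T cells, which lack these proteins, so the genotypes were not compared on them. CD172a in T cells was likewise higher in Stat4fl/flCD11cCre (93) than in WT (39).

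Members were a larger share of the Stat4fl/flCD11cCre library, 1.84% (1.61 to 2.09, exact Clopper-Pearson) against 1.19% (1.01 to 1.39) of WT cells, a ratio of 1.55 (1.26 to 1.91). The ratio was 1.44 with 2 or more gate genes, 1.74 with 4 or more, 1.45 when cells were thinned before the rule was applied, and 1.70 without the doubtful members. Other populations of the same sort also differed: microglia were 39.1% of WT and 52.2% of Stat4fl/flCD11cCre cells, T cells 15.4% and 7.75%, and classical monocytes 7.41% and 6.75%. With microglia taken out of the total the ratio was 2.06 (1.67 to 2.55), from 150 of 8068 and 225 of 5876 cells. The sort was for MHC class II and CD11c, and RNA of both differed between the genotypes in members, as given below. The part of the gate in the share was not tested.

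Within members, 5.73% of 6476 genes with 50 or more UMIs were 1.5-fold or more higher in Stat4fl/flCD11cCre and 5.71% lower, with a median log2 ratio of 0.04. Of the 22 patrolling monocyte genes, 1 (Itgax) was higher and 1 (Cd274) lower, 4.55% each way and near the shares over all genes, with a median of 0.15. Of 13 classical monocyte genes 4 were higher (Ccr2, F13a1, Vcan and Thbs1) and 0 lower, while Ly6c2 was at 613 and 538 CPM and was found in 52.5% of WT and 33.6% of Stat4fl/flCD11cCre members. F13a1 was at 78.5 CPM in WT and 146 in Stat4fl/flCD11cCre (log2 0.90), and at -0.08 among members with 4 or more gate genes. Without the doubtful members F13a1 was at 11.0 and 59.7 CPM (log2 2.44), Thbs1 at 7.86 and 39.2 (log2 2.32) and Vcan at 4.71 and 34.1 (log2 2.85). In these cells 3 UMIs equal 4.71 CPM in WT and 2.56 in Stat4fl/flCD11cCre, so the WT values rest on few UMIs. Leaving out the doubtful members also removed those that met the classical monocyte rule, which used F13a1 and Vcan.

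Genes of the response to interferon-gamma were lower together. Of 16 measured, 13 were 1.5-fold or more lower in Stat4fl/flCD11cCre members and 0 higher, with a median log2 ratio of -1.02, and 9 of 13 were lower without the doubtful members (median -1.09). Iigp1, a GTPase that attacks the vacuoles of intracellular parasites, was at 231 CPM (205 to 259) in WT. In Stat4fl/flCD11cCre it was at 42.4 (33.7 to 52.6), and the log2 ratio was -2.45 (-2.82 to -2.09). It was found in 36.7% of WT and 11.9% of Stat4fl/flCD11cCre members, and in 22.4% and 6.25% after thinning, while T cells were at 6.24% and 5.76%. The Stat4fl/flCD11cCre members were thus near the T cells of their library in the share with Iigp1.

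The chemokines that draw CXCR3-bearing T cells followed. Cxcl9 was at 496 CPM (458 to 535) in WT members and at 112 (97.7 to 128) in those of Stat4fl/flCD11cCre. Its log2 ratio was -2.14 (-2.37 to -1.92), and it was found in 24.1% and 7.96% of them. Cxcl10 was at 369 and 89.4 CPM (log2 -2.04, from -2.30 to -1.79), found in 27.2% and 9.73%, and its ratio was -3.14 without the doubtful members. In Stat4fl/flCD11cCre, 1 cell held 35.5% of the Cxcl9 and 1 cell 40.5% of the Cxcl10 UMIs. Ccl5, which is also abundant in T cells, was at 391 and 123 CPM (log2 -1.67).

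Guanylate-binding proteins, which act against microbes inside cells, and feedback regulators were lower too. Gbp5 was at 242 CPM in WT and 81.2 in Stat4fl/flCD11cCre (log2 -1.58, from -1.86 to -1.30), and Gbp2 at 533 and 266. Socs1, which shuts off cytokine receptors, was at 46.2 and 15.5 (log2 -1.57, and -2.27 without the doubtful members), and Cd274, which encodes the T cell inhibitor PD-L1, at 374 and 166 (log2 -1.17), found in 65.2% and 43.8% of members. Irf1, a transcription factor of the pathway, was at 350 and 215 (log2 -0.70). Irgm1 and Gbp3 did not reach 1.5-fold (log2 -0.42 and -0.55).

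**Figure D3:**
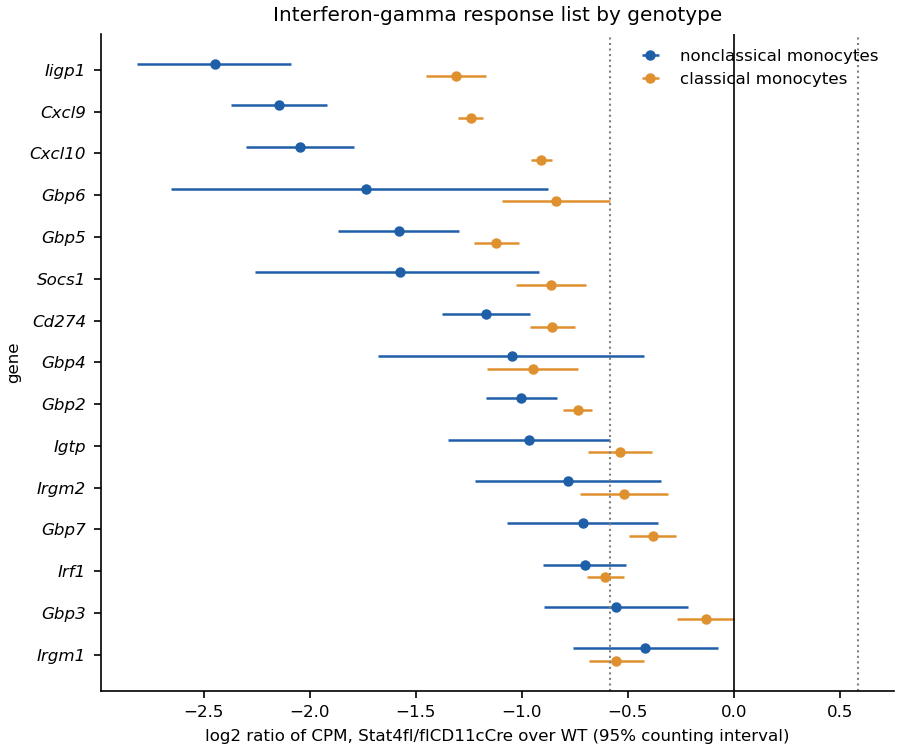
Log2 ratio of CPM, Stat4fl/flCD11cCre over WT (x axis, lines are 95% counting intervals), for 15 of the 16 genes of the interferon-gamma response list with 50 or more UMIs (y axis) in nonclassical monocytes (blue) and classical monocytes (orange); dotted lines mark 1.5-fold. Every point lies below 0, and Iigp1, Cxcl9 and Cxcl10 lie below -2 in nonclassical monocytes only.

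Other populations from the same libraries, which share the pools of mice with the members, gave their own ratios for the same list. Classical monocytes had 10 of 17 genes lower and 1 higher (median -0.74), microglia 15 of 17 lower and 1 higher (median -1.13), macrophages with Arg1 3 of 16 lower and 1 higher (median -0.27) and cDC2 4 of 13 lower and 0 higher (median -0.15). Over all genes, 5.76% were lower and 3.36% higher in classical monocytes, 9.05% and 8.82% in microglia, 2.99% and 3.8% in macrophages with Arg1 and 5.57% and 6.7% in cDC2. In classical monocytes Cxcl9 was at 918 CPM in WT and 388 in Stat4fl/flCD11cCre (log2 -1.24). Cxcl10 was at 1136 and 606 there (log2 -0.91) and Iigp1 at 170 and 68.7 (log2 -1.31). Cxcl9 was also lower in microglia (log2 -1.58) and cDC2 (log2 -1.41). In macrophages with Arg1 it was higher, at 360 CPM in WT and 573 in Stat4fl/flCD11cCre (log2 0.67), as it was in T cells (log2 0.70). T cells, the best-known source of interferon-gamma, were a smaller share of the Stat4fl/flCD11cCre library, as given above. The part of that in these ratios was not tested.

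Promoters of 3 of these genes are shown because 13 of the 18 list genes have a promoter in the RefSeq table and most hold letters that interferon-activated factors are known to bind. GAAA, 2 bases of any kind and GAAA again, the core of the interferon-stimulated response element (ISRE), occurred on either strand in 10 of the 13, against 3.44% of 32851 promoters of 300 bases. TTCNNNGAA, the gamma-activated site (GAS) bound by STAT dimers, occurred in 5 of the 13, against 8.30%, and 11 held either. The 13 genes have 15 promoters and a gene counts if any of them matched, while the percentages are per promoter. Capitals mark matches in the 250 bases before the start, on GRCm38.p6: 1 ISRE in Cxcl10 (chr5:92348890-92349139, minus strand), 1 ISRE and 2 GAS in Gbp5 (chr3:142496684-142496933, plus strand) and 1 GAS in Irf1 (chr11:53769764-53770013, plus strand). A match says nothing of whether a factor was bound in these cells.
Cxcl10: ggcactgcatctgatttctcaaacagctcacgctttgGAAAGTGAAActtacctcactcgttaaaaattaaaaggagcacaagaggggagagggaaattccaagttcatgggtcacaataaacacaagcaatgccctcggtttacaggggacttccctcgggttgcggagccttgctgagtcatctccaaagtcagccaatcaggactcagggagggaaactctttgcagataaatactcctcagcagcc
Gbp5: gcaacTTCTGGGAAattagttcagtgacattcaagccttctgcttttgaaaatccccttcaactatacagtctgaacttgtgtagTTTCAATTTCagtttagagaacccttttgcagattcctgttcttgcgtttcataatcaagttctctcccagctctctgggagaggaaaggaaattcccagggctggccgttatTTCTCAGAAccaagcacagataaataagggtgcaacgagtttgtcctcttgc
Irf1: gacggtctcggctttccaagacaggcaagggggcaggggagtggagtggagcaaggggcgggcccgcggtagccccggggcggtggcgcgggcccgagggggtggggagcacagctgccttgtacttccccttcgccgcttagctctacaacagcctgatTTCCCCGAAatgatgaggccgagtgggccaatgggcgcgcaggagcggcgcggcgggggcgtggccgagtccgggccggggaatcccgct

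Type I interferon response genes were lower in 6 of 14 measured and higher in 0, with a median of -0.35, and in 3 of 9 without the doubtful members (median -0.15). Isg15, a ubiquitin-like modifier, was at 187 CPM in WT and 99.2 in Stat4fl/flCD11cCre (log2 -0.91), and Rsad2, the antiviral protein viperin, at 51.6 and 24.3 (log2 -1.09). Irf7, which drives interferon-alpha genes, was at 93.9 and 79.1 (log2 -0.25, from -0.60 to 0.11). For the same list microglia had 16 of 16 genes lower (median -1.02) and cDC2 7 of 14 (median -0.55). Macrophages with Arg1 had 3 of 14 lower (median -0.19) and classical monocytes 1 of 16 (median -0.33), and 0 were higher in any of the 4.

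MHC class II RNA was lower in Stat4fl/flCD11cCre members. H2-Aa was at 2115 CPM (2036 to 2195) in WT members and at 1428 (1376 to 1483) in those of Stat4fl/flCD11cCre (log2 -0.57), H2-Ab1 at 2298 and 1498 (log2 -0.62) and H2-Eb1 at 1771 and 1064 (log2 -0.73). Cd74, the invariant chain, was at 6128 and 4604 (log2 -0.41) and Ciita, the master regulator of the class, at 80.0 and 55.8 (log2 -0.52). Only H2-Ab1 and H2-Eb1 passed 1.5-fold among 8 measured (median -0.47), and 4 of 8 did without the doubtful members. For the same list microglia had 9 of 12 genes lower (median -0.77) and classical monocytes 3 of 11 (median -0.34), with 0 higher in either. Macrophages with Arg1 had 0 of 9 lower or higher (median 0.11), and cDC2 0 of 11 lower and 3 higher (median 0.38). Shares over all genes in these populations are given above. H2-Aa was found in 63.9% of WT and 44.6% of Stat4fl/flCD11cCre members after thinning (70.3% and 54.0% without), and in 8.25% and 5.23% of T cells.

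Per cell, MHC class II genes took a median of 0.965% of the UMIs of WT members and 0.418% of Stat4fl/flCD11cCre members. Under 1% were 81 of 158 WT members (51.3%, 43.2 to 59.3) and 156 of 226 Stat4fl/flCD11cCre members (69.0%, 62.6 to 74.99). The 1% line is a cut through a range and no gap lies there: 20 and 34 members were between 0.5% and 1%, and 36 and 33 between 1% and 2%. Members at or over 1% were deeper, with medians of 8624 and 9681.5 UMIs against 5312 and 5715 under it.

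The 22 patrolling monocyte genes outside the rule took 1.08% of UMIs in WT members under the line and 0.901% in those at or over it, and 1.18% and 0.957% in Stat4fl/flCD11cCre. Single genes differed in this. In WT, Nr4a1 was at 466 CPM under the line and 260 at or over it, Spn at 243 and 147 and Ceacam1 at 207 and 85.7, while Eno3 was at 193 and 185 and Fcgr4 at 703 and 712. In Stat4fl/flCD11cCre, Spn was at 261 and 122, Ceacam1 at 215 and 106, and Eno3 at 324 and 159, while Nr4a1 was at 530 and 493 and Fcgr4 at 647 and 634. Cxcl9 in WT was at 133 CPM under and 774 at or over the line, and in Stat4fl/flCD11cCre at 97.8 and 135. The ranges were made from the members' own RNA, so these values are a description.

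**Figure D4:**
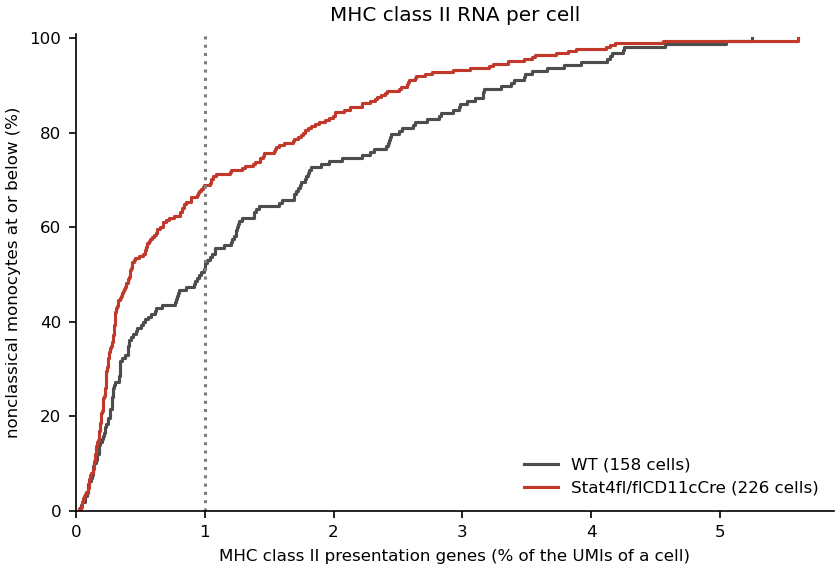
Cumulative share of nonclassical monocytes (y axis, %) by the part of a cell's UMIs that MHC class II presentation genes took (x axis, %), for 158 WT cells (grey) and 226 Stat4fl/flCD11cCre cells (red). The dotted line marks 1%, under which lie 51.3% of WT and 69.0% of Stat4fl/flCD11cCre members.

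Complement genes were lower in 5 of 11 measured and higher in 0, with a median of -0.55. C1qa, a chain of the first complement component, was at 529 CPM in WT and 119 in Stat4fl/flCD11cCre members (log2 -2.15, from -2.38 to -1.94), C1qb at 546 and 195 (log2 -1.49) and C1qc at 327 and 104 (log2 -1.65). Without the doubtful members C1qa was at 171 and 64.8 (log2 -1.40). Microglia held C1qa at 5938 and 6269 CPM, and 31.6% and 19.5% of members had a UMI against 18.6% and 15.3% of T cells. The source of C1q RNA in T cells was not tested. Of the microglia list, 4 of 5 measured genes were lower in Stat4fl/flCD11cCre members, and without the doubtful members 1 gene was measured and 0 were lower. Tmem119 was found in 7 WT and 5 Stat4fl/flCD11cCre members. The part of microglia RNA in the C1q ratios was not tested. Cfb, complement factor B, was at 225 and 105 CPM (log2 -1.10) against 201 and 90.2 in microglia.

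Genes of inflammatory macrophages were lower in 6 of 11 measured and higher in 1 (Fabp5), with a median of -0.71, which was 0.11 over the 5 genes measured without the doubtful members. Fabp5 itself was at 0.78 over all members and -0.57 without the doubtful members. Spp1 was at 75.4 CPM in WT and 20.7 in Stat4fl/flCD11cCre and Arg1 at 85.4 and 45.0, and without the doubtful members Spp1 was at 4.71 and 2.56 and Arg1 at 37.7 and 0. The last Spp1 values equal 3 UMIs in each library. Members that met the rule for macrophages with Arg1 were among those left out. Of 12 chemokine genes 6 were lower and 2 higher (median -0.60, and 0.09 without the doubtful members). The 2 higher were Ccl9, at 112 and 185 CPM, and Ccl22, whose UMIs came from 1 cell in each library. Icam1, the ligand of LFA-1, was at 153 and 68.2 CPM (log2 -1.17).

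Of the other genes ranked lowest, Upp1, uridine phosphorylase, was at 177 CPM in WT and 40.8 in Stat4fl/flCD11cCre members (log2 -2.12), found in 36.1% and 16.8% of cells. Serpina3g, a serine protease inhibitor, was at 160 and 37.7 (log2 -2.08), and Plpp1, a lipid phosphatase, at 70.8 and 12.9 (log2 -2.45). Gatm, an enzyme of creatine synthesis, was at 83.9 and 20.7 (log2 -2.02). Lpl, lipoprotein lipase, was at 59.3 and 14.0 (log2 -2.09), but 1 WT cell held 49.4% of its UMIs. Upp1 and Serpina3g were also lower in classical monocytes (log2 -1.28 and -1.10), and Plpp1 was at 2.67 and 2.16 CPM there.

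Itgax, which encodes CD11c, the protein of the sort and the promoter of the Cre, was higher in Stat4fl/flCD11cCre members. WT members were at 59.3 CPM (46.8 to 74.1) and those of Stat4fl/flCD11cCre at 186 (167 to 206), with a log2 ratio of 1.65 (1.29 to 2.02). A UMI of Itgax was found in 29.1% of WT and 61.9% of Stat4fl/flCD11cCre members, and in 12.9% and 36.6% after thinning, against 3.61% and 3.31% of T cells. Itgax in classical monocytes was at 16.8 and 12.4 CPM, in microglia at 32.8 and 21.5, in macrophages with Arg1 at 28.5 and 39.1, and in cDC2 at 57.4 and 95.6. Without the doubtful members the log2 ratio was 1.52.

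Itgax lies at chr7:128129526-128150657 on GRCm38.p6, next to Itgam at chr7:128062640-128118491, which was at 268 and 277 CPM in members. Itgal, another integrin chain gene of chromosome 7 (127296139 to 127335137), was at 562 and 621. The reads near 3' ends do not tell transcripts of the native gene from others that share its end, and the sources used here do not describe the structure of the Cre transgene.

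Plcb4, a phospholipase C that acts downstream of G protein-coupled receptors, was higher in Stat4fl/flCD11cCre members, from 5.39 CPM (2.17 to 11.1) in WT to 81.7 (69.4 to 95.4), a log2 ratio of 3.92 (2.85 to 5.26), and it was found in 2.53% and 35.8% of members. It was also higher in the other populations, at 3.06 and 27.0 CPM in classical monocytes, 8.64 and 67.9 in macrophages with Arg1, 1.40 and 56.0 in cDC2, 5.88 and 27.4 in microglia and 63.4 and 138 in T cells. The WT value in members rests on 7 UMIs. Plcb1, its neighbour on chromosome 2 (134786164 to 135475258, with Plcb4 at 135658603 to 136014602 on GRCm38.p6), was at 173 and 270 CPM in members (log2 0.64), and at 91.1 and 242 (log2 1.41) without the doubtful members. In cDC2 Plcb1 was at 2.80 and 39.6 CPM and in microglia at 74.2 and 64.5.

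**Figure D5:**
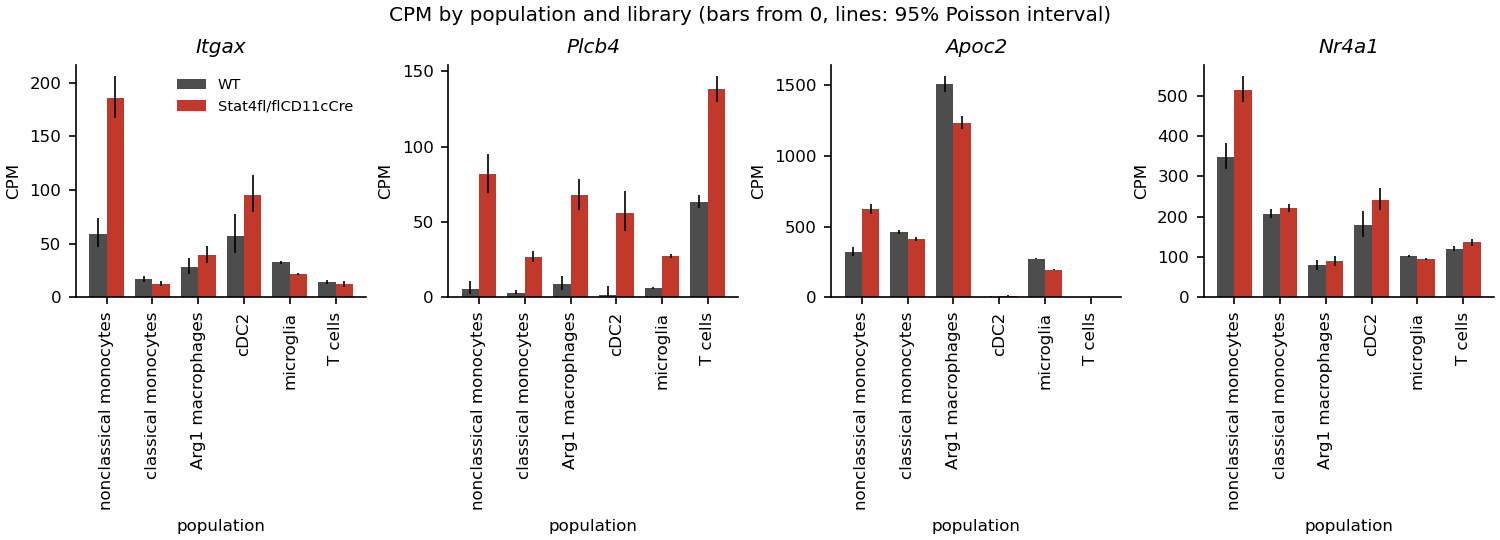
CPM (y axis, from 0; lines are 95% Poisson intervals) of Itgax, Plcb4, Apoc2 and Nr4a1 in 6 populations (x axis) of the WT (grey) and Stat4fl/flCD11cCre (red) libraries. Itgax is at 59.3 and 186 in nonclassical monocytes and at 16.8 and 12.4 in classical monocytes, while Plcb4 is higher in Stat4fl/flCD11cCre in each population drawn.

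Further genes were higher in Stat4fl/flCD11cCre members. Apoc2, the cofactor of lipoprotein lipase, was at 323 CPM in WT and 627 in Stat4fl/flCD11cCre (log2 0.96), against 462 and 412 in classical monocytes. Adgrl3, a latrophilin receptor, was at 27.7 and 68.8 (log2 1.31) and under 2 CPM in classical monocytes. Fabp4 was at 73.9 and 125 CPM (log2 0.75). Immediate early genes were higher in 4 of 19 and lower in 1 (Egr1), with a median of 0.35. Fos was at 402 and 845 CPM (log2 1.07) and Atf3, a stress-induced factor, at 115 and 221 (log2 0.94), while Jun was at 468 and 381. Nr4a1 was at 349 and 515 (log2 0.56, from 0.40 to 0.72), under 1.5-fold, and at 0.26 without the doubtful members. Fos in classical monocytes was at 1127 and 1569 CPM (log2 0.48).

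Several of the largest ratios came from 1 or a few cells. Jchain, a gene of antibody-secreting cells, was at 285 CPM in Stat4fl/flCD11cCre members and 0 in WT, and 1 cell held 99.8% of its UMIs. Prss34 and Mcpt8, basophil proteases, were at 269 and 166 CPM and 0 in WT, with all UMIs of each in 1 cell. Retnlg and Mmp8, neutrophil genes, had log2 ratios of 2.29 and 2.87, with 78.2% of the WT Retnlg UMIs in 1 cell, and Retnlg was at 0.12 without the doubtful members. Elane, neutrophil elastase, was at -5.84 with 59.1% of its WT UMIs in 1 cell, and without the neutrophil-rich members it was at 0 CPM in WT and 2.43 in Stat4fl/flCD11cCre. Mmp8 was at 0 and 13.6 without the doubtful members. Ddt was at 1.04, with 46.3% of its Stat4fl/flCD11cCre UMIs in 1 cell.

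Of 6 Fc receptor genes 0 passed 1.5-fold (median -0.12), and Fcgr4 was at 708 and 642 CPM. Of 10 genes of the TGF-beta and IL-10 pathway 0 passed (median 0.06), and of 15 adhesion genes 1 did (Icam1, lower). Among inflammatory cytokines, Il1b was at 973 and 1292 CPM (log2 0.41), Tnf at 125 and 76.5 (log2 -0.71) and Osm at 39.2 and 70.3 (log2 0.84), or 3.14 and 17.9 without the doubtful members. The last WT value of Osm lies under the 4.71 CPM that 3 UMIs give in those cells. Of the IL-12 and IL-23 genes, Il12rb2 had 30 UMIs in all members, and Il12rb1, Il23r, Il12a, Il12b and Il23a each had fewer than 20, too few to give a value.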

How the data were processed

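Single-cell RNA was measured in 2 libraries, 1 per genotype. The deposited matrices hold raw UMI counts of 32285 genes and 5 antibody tags per barcode, and per the file headers the authors made them with Cell Ranger 7.0.0. Further names in the submitters' processing notes, given with no role, are mm10, bcl2fastq, STAR, Seurat and R 4.3.0. How the authors treated doublets and free RNA is not given in the sources used here.

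Counts were summed over the cells of a population in each library and divided by its total (CPM). Levels have exact Poisson intervals, shares exact Clopper-Pearson intervals and ratios exact conditional binomial intervals, all at 95%. PCR duplicates are removed by UMIs, but intervals cover counting error only and not differences between mice. With 1 library a genotype no test was possible. A gene was called between genotypes at 1.5-fold or more among genes with 50 or more UMIs, and between populations at 2-fold or more in the same direction in both libraries. A call needs no interval to exclude equality.

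The other populations were chosen by genes like the members, but cells that met the rule of a second population were left out of them. Members that met a second rule were kept. Macrophages held 3 or more of Arg1, Slc7a2, Gpnmb and Ms4a7, always with Arg1. For cDC2 3 or more of Flt3, Zbtb46, Cd209a, Mgl2 and Clec10a were required, for microglia 3 or more of Tmem119, P2ry12, Gpr34, Olfml3, Sparc and Fcrls, and for T cells 3 or more of Cd3e, Cd3d, Cd3g, Trac and Trbc2, always with Cd3e. Named genes were the 12 highest and 12 lowest by the interval bound nearest to 0 (genotype, 100 or more UMIs and 50 or more CPM) or by the smaller ratio of both libraries (populations), and members of the gene lists. Members and lists were chosen with earlier results of these data known.

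The calculation of genotype ratios and intervals was tested on simulated data. The simulated counts followed the Poisson model that the intervals assume, so they say nothing of genes whose UMIs sit in a few cells. Alternatives were other gate sizes, thinning, doublet removal, stricter cell filters, other UMI minimums, another fold, median-centring and means over cells. Leaving out the neutrophil-rich members, alone or with members of a second population, was added after seeing the data. Python 3.11.15, numpy 2.4.6, scipy 1.17.1, pandas 2.3.3 and scanpy 1.11.5 (Scrublet) were used. Single values of a few list genes are not reported here; counts and medians over the lists include them.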

Additional observations from a re-analysis of the deposited data

Results flagged for a closer look

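Some genes stood on opposite sides of equality in the 2 libraries when members were set against classical monocytes, and these differences were not tested. C1qa had a log2 ratio of 0.28 in WT and -1.65 in Stat4fl/flCD11cCre, and C1qc 0.16 and -1.21. Lpl went from 0.82 to -1.03 and Iigp1 from 0.44 to -0.70. Apoc2 went the other way, from -0.51 in WT to 0.60 in Stat4fl/flCD11cCre.

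The genotype ratio itself had opposite signs in nonclassical and classical monocytes for 3 of the genes examined, also untested. For these, both intervals left out 0 and at least 1 ratio passed 1.5-fold. Cx3cr1 also had opposite signs, at 0.42 in nonclassical and -0.58 in classical monocytes, but stayed under 1.5-fold in both. Smaller ratios of opposite sign were not counted. Itgax was at 1.65 in nonclassical and -0.44 in classical monocytes, and Apoc2 at 0.96 and -0.16. Stat4 was at 1.16 and -0.46, where the members' value rests on 9 UMIs in WT and 30 in Stat4fl/flCD11cCre.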

How the results depend on the processing

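The larger share of members in Stat4fl/flCD11cCre kept its direction in every setting run, and its ratio was 2.06 with microglia out of the total. No setting dropped the exclusion of Cd3e and P2ry12. That exclusion took 50.3% of WT and 39.7% of Stat4fl/flCD11cCre cells with 3 or more gate genes. In the main setting 371 of 6476 genes were 1.5-fold or more higher in Stat4fl/flCD11cCre members and 370 lower. Counts at 2-fold are of the same 6476 genes, while the UMI minimum and the choice of cells change the number tested. The number of genes 1.5-fold or more higher in Stat4fl/flCD11cCre members was 247 with the rule applied after thinning, 811 at 20 or more UMIs, 67 at 200 or more and 54 at 2-fold. The number of genes 1.5-fold or more lower in Stat4fl/flCD11cCre members was 246 of 4847 tested without the doubtful members, 742 at 20 or more UMIs, 98 at 200 or more and 105 at 2-fold. MHC class II genes lower numbered 1 with 2 or more gate genes or with 8 more genes required at 0, 0 at 2-fold, and 4 with 4 or more gate genes, after thinning, at 20 or more UMIs and without the neutrophil-rich or the doubtful members. Type I interferon genes lower numbered 1 with 4 or more gate genes or at 200 or more UMIs, 2 after thinning, and 3 with 8 more genes at 0 or without the doubtful members. Patrolling genes higher numbered 2 after thinning or without the doubtful members and 3 with 8 more genes at 0. Against classical monocytes, 471 genes were higher and 522 lower without the doubtful members, against 311 and 205 of 8602 with them. Among single genes, F13a1 was at -0.078 with 4 or more gate genes, Ddt at -0.30 after thinning, Fabp5 at -0.57 without the doubtful members, and Elane had UMIs in Stat4fl/flCD11cCre alone without the neutrophil-rich members. The chemokine median was 0.082 without the neutrophil-rich and 0.089 without the doubtful members, and the inflammatory macrophage median 0.11 without the latter. The cause of these changes was not tested, except that other UMI minimums and folds change which genes are counted. No paired analysis was possible because each genotype has 1 library, and for the same reason no replicate could be left out.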
